A study of Homo sapiens with 10 samples.

Results

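Leukotrienes and prostaglandins are lipid signals that cells make from arachidonic acid. The 10 genes described here are PLA2G4A, ALOX5, ALOX5AP, LTA4H, PTGS1, PTGS2, PTGES, PTGES2, PTGES3 and HPGD. They encode enzymes of both branches, a membrane protein that helps ALOX5 (ALOX5AP) and an enzyme that inactivates prostaglandins (HPGD). They were found by symbol, 10 of the 55771 gene symbols in the long RNA tables, and 9 of them passed the filter on low counts. The set was chosen from earlier results of these data, that is from the levels of such genes in libraries labelled TAF1C against empty vector libraries. The comparison of the 10 genes between the groups is therefore a description. The number of them that passed the test fitted to all genes supports nothing, in the main fit or in the alternatives. For the main fit it stands beside the share of all genes that passed.

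The samples were stable lines of BEAS-2B, human bronchial epithelial cells that had been immortalised, grown in LHC9 medium with 10% fetal bovine serum. The TAF1C lines carried a vector for TAF1C driven by a pCMV6 promoter (3 libraries), and the control lines the empty vector, eV (2 libraries). Both were kept under G418, the drug that selects for the vector. TAF1C is a subunit of SL1, which brings RNA polymerase I to the ribosomal RNA genes. The labels give no genotype, time point, clone number or culture for a replicate, so any p measures the spread between these libraries, which may be technical. Ribosomal RNA was depleted before library preparation. Small RNA libraries of the same lines were not used here.

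Depth was 37533366, 36481548 and 34212883 gene counts in TAF1C replicates 1, 2 and 3, and 22809601 and 28476151 in eV replicates 1 and 2. Levels are in CPM, read counts scaled for depth and by TMM factors, and they are not divided by gene length, so they compare libraries and not genes. The TAF1C transcript (ENSG00000103168) itself was at 63.5, 58.5 and 66.5 CPM in its own libraries and 63.9 and 77.1 CPM in the eV libraries. The difference, TAF1C minus eV, was -0.17 ± 0.13 (SE) on the log2 scale (edgeR quasi-likelihood adjusted p = 0.353), so the target gene was not higher in the libraries that bear its name. The sources used here do not say whether transcripts of the vector were counted there. Below, with TAF1C and with eV refer to the labels of the libraries only. The eV libraries stood further apart from each other than the others did, with an SD of the log2 difference over tested genes of 1.11, against 0.49, 0.45 and 0.48 for the pairs labelled TAF1C. The 10 bronchial epithelial markers summed to 1430, 1320 and 1430 CPM in the libraries labelled TAF1C and 364 and 358 CPM in the eV libraries. This sum, though not each marker, moved with ALOX5AP and PTGES. Most of this was KRT7, at 1040, 959 and 1050 CPM with TAF1C and 221 and 245 CPM with eV, and KRT8, at 345, 316 and 327 CPM with TAF1C and 101 and 96 CPM with eV. KRT18 and, narrowly, KRT17 were also higher in each library labelled TAF1C, while KRT5, KRT14, KRT19, CDH1 and TP63 overlapped between the groups. EPCAM went the other way and was at 0.0566, 0.175 and 0.429 CPM in the libraries labelled TAF1C and 14.6 and 1.09 CPM in the eV libraries. The 10 markers of photoreceptors, cells foreign to the airway, summed to 9.56, 6.30 and 8.07 CPM in the libraries labelled TAF1C and 1130 and 1210 CPM in the eV libraries. The part that these differences play in the values below was not tested. In bulk RNA, fewer cells of a type and less RNA per cell cannot be told apart.

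In the pathway, cytosolic phospholipase A2 (PLA2G4A) cuts arachidonic acid from membrane lipids. For leukotrienes, 5-lipoxygenase (ALOX5) oxidises it with the help of the membrane protein FLAP (ALOX5AP), and LTA4H then makes leukotriene B4, which attracts neutrophils. For prostaglandins, the cyclooxygenases PTGS1 and PTGS2 make prostaglandin H2, which the PGE synthases PTGES, PTGES2 and PTGES3 turn into prostaglandin E2, and HPGD inactivates it. Leukotriene synthesis is known mainly from white blood cells, while PTGS2 and PTGES are known as inducible genes of inflamed epithelium.

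RefSeq promoter sequences (GRCh38.p14) were at hand for 9 of the 10 genes, ALOX5 being the gene without one, in 13 windows. The 250 bases before the start are shown for ALOX5AP and PTGES, the members raised in the libraries labelled TAF1C. They are also shown for PTGS2, the classical inducible cyclooxygenase. PTGES lies at chr9:129753043-129753292 on the minus strand, ALOX5AP at chr13:30713235-30713484 on the plus strand, and PTGS2 at chr1:186680424-186680673 on the minus strand. Capitals mark motif matches on either strand.
PTGES: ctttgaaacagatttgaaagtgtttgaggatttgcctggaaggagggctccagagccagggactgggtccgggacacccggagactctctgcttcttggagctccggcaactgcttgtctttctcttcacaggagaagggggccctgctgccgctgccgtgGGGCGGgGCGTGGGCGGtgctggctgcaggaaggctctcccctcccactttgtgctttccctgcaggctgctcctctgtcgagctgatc
ALOX5AP: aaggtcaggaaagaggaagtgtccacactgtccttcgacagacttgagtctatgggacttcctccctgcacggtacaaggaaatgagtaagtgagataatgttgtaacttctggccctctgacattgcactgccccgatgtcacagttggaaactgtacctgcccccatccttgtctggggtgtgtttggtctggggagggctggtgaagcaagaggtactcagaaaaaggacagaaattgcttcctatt
PTGS2: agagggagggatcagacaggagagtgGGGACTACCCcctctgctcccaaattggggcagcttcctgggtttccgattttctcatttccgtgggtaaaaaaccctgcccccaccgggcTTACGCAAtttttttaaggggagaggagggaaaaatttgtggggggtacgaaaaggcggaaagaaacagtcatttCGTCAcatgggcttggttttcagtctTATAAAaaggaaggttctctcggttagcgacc

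The capitals in PTGES are a pair of GC boxes (GGGCGG, bound by Sp1 and EGR1) at -89 to -84 and -78 to -73, counted from the start, and a longer EGR1 site (GCGTGGGCG) at -82 to -74 that overlaps the second box. Of 35116 RefSeq windows of the same length, 42.6% hold a GC box and 0.72% the longer EGR1 site. In PTGS2 they are, from left to right, an NF-kB-like site (GGGA, 4 bases of any kind, then CC), a C/EBP site (TTNCGCAA), a core of the cyclic AMP response element (CRE, CGTCA) and a TATA box (TATAAA). These letters occur in 22.6%, 0.752%, 21.2% and 10.7% of all windows. ALOX5AP has no capitals, since none of these motifs was found in its window, nor in those of LTA4H and PLA2G4A. An AP-1 site (TGANTCA), present in 6.57% of all windows, was found in none of the 13. PTGES3 and the first start of PTGES2 each hold 4 GC boxes, and the second start of PTGES2 holds a longer EGR1 site at -147 to -139. GC content was 61.2% for PTGES, 49.6% for ALOX5AP and 50.4% for PTGS2, beside a median of 58.0% over all windows. The EGR1 and C/EBP sites were added to the search after the sequences were seen, and a match is a run of letters only.

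**Figure D1:**
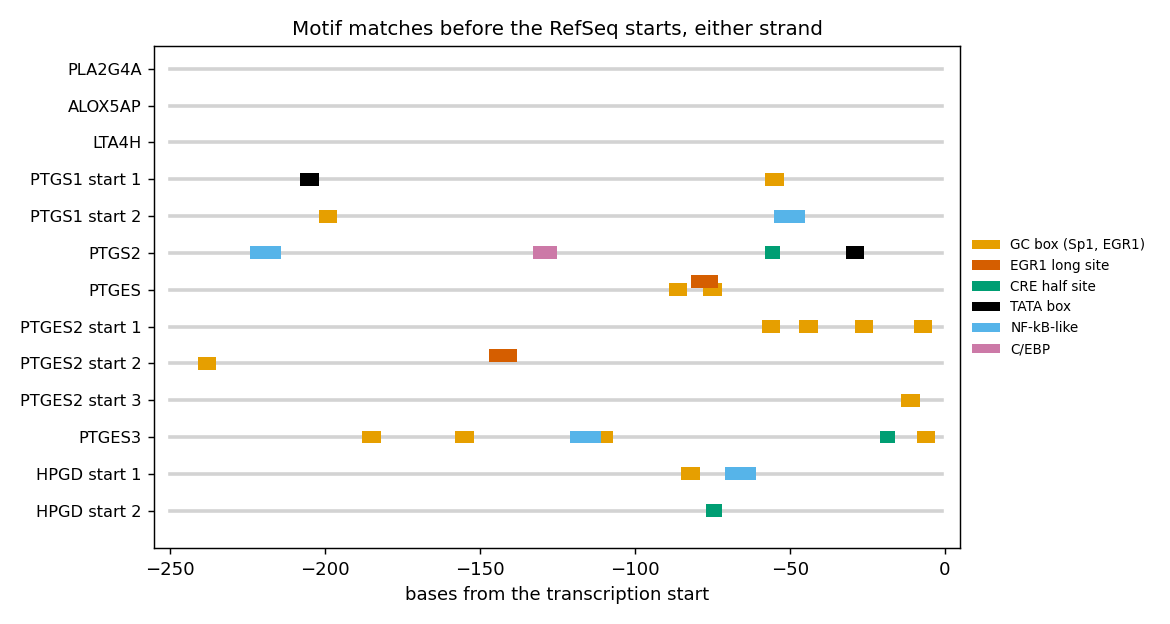
Motif matches in the 250 bases before the RefSeq start of each gene, on either strand. Each grey line is a start, the x axis is the distance from the start in bases, and each coloured block is a match. PTGES shows its GC boxes and longer EGR1 site between -89 and -73, whereas the lines of ALOX5AP, LTA4H and PLA2G4A are empty.

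Among the 9 genes that passed the filter, 2 were raised (ALOX5AP and PTGES), 1 was lowered (ALOX5) and 6 did not pass the edgeR quasi-likelihood test at an adjusted p under 0.05. Over all 18402 genes tested, 15.9% were raised and 22.6% lowered, 2922 and 4158 genes. Nothing is read from the members' count, since the same comparison chose them, and ALOX5 was not in it without TAF1C replicate 1, 2 or 3. The count was 5 raised and 1 lowered without eV replicate 1 and 6 raised and 2 lowered without eV replicate 2. Their median log2 fold change was 0.53, beside -0.10 for all genes tested, and the median of all genes was -0.32 when library totals replaced TMM. The values of the libraries labelled TAF1C lay wholly above or below those of the eV libraries for 8 of the 9 tested genes, PTGS1 being the exception, and for 11818 of all 18402.

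**Figure D2:**
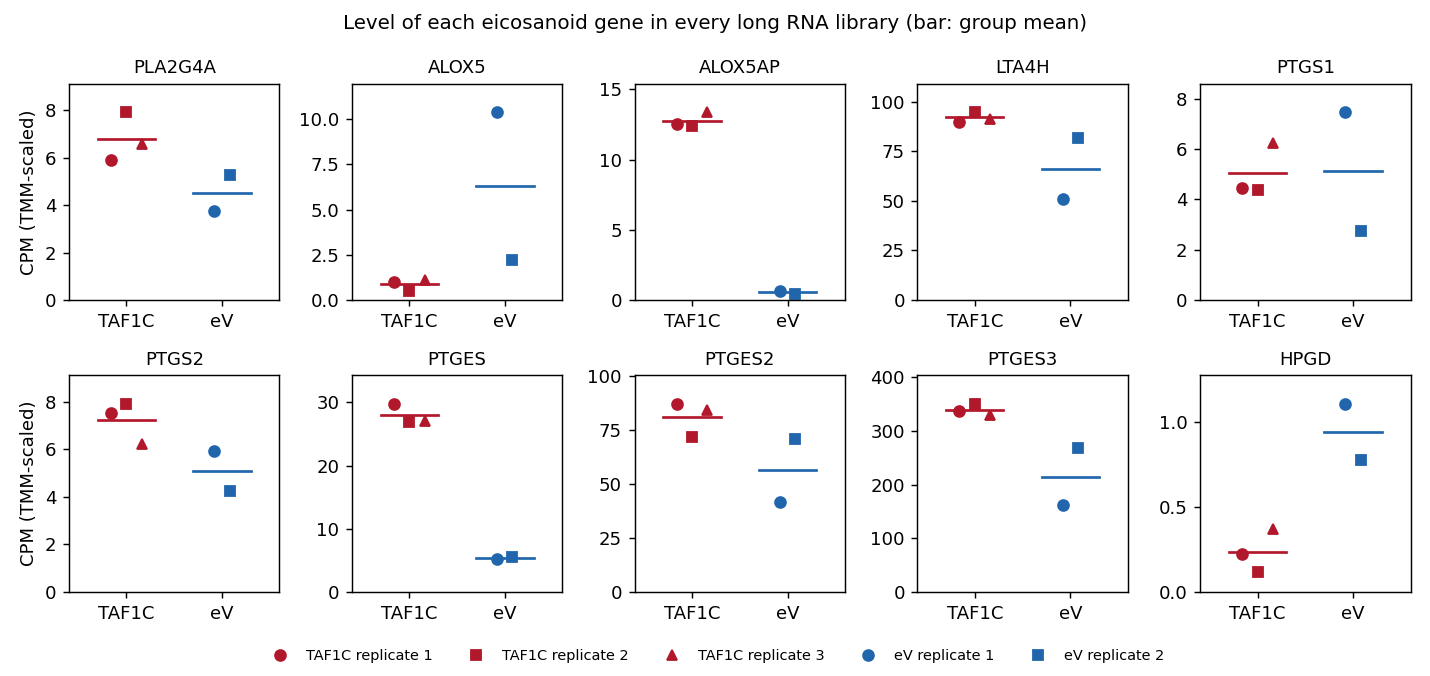
Level of each of the 10 genes in the 3 libraries labelled TAF1C (red) and the 2 eV libraries (blue), in TMM-scaled CPM on axes that start at 0 and differ between panels. Symbols are replicates and bars are group means. ALOX5AP and PTGES are high in every library labelled TAF1C, ALOX5 is high in eV replicate 1 above all, and PTGS1 overlaps between the groups.

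PLA2G4A (ENSG00000116711), which releases the substrate of both branches, was at 5.88, 7.93 and 6.56 CPM in the libraries labelled TAF1C and 3.76 and 5.25 CPM in the eV libraries. The lowest library labelled TAF1C lay just above the higher eV library. Its log2 fold change was 0.59 ± 0.29 (SE), with 0.30 without eV replicate 1 and 0.82 without eV replicate 2. PLA2G4A and PTGS2 are each other's nearest protein-coding neighbours on chromosome 1 in RefSeq.

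ALOX5 and its partner ALOX5AP had opposite patterns. ALOX5AP (ENSG00000132965) had 442, 425 and 437 counts in the libraries labelled TAF1C and 18 and 12 counts in the eV libraries. In CPM this was 12.5, 12.4 and 13.4 with TAF1C, a mean of 12.8 ± 0.553 (SD, n = 3), and 0.663 and 0.423 with eV, a mean of 0.543 ± 0.170 (SD, n = 2). FLAP transcripts were thus 23.5-fold higher in the libraries labelled TAF1C, which lay close together. The log2 fold change was 4.55 ± 0.32 (SE), with 4.23 against eV replicate 1 alone and 4.86 against eV replicate 2 alone, and it ran from 4.23 to 4.84 over 12 alternative settings.

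ALOX5 (ENSG00000012779), the lipoxygenase that FLAP serves, had 35, 17 and 36 counts in the libraries labelled TAF1C and 283 and 63 counts in the eV libraries. Its level was 0.990, 0.496 and 1.10 CPM with TAF1C, a mean of 0.863 ± 0.323 (SD, n = 3), and 10.4 and 2.22 CPM with eV, a mean of 6.33 ± 5.81 (SD, n = 2). All libraries labelled TAF1C were below both eV libraries, but the eV libraries differed from each other by 4.70-fold. Of all tested genes, at any level, 93.5% differed less between them. The gap was not limited to ALOX5. More genes had a count in eV replicate 1 (45285) than in eV replicate 2 (36669), though its depth was lower. The libraries labelled TAF1C had 41791, 40514 and 41072 such genes. The part of this in the ALOX5 gap was not tested. The log2 fold change was -2.87 ± 0.71 (SE), with -3.65 against eV replicate 1 alone and -1.43 against eV replicate 2 alone. Without TAF1C replicate 1, 2 or 3 it was -2.98, -2.59 and -3.08.

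Markers of other cell types differed between the eV libraries too, and only in part as ALOX5 did. RCVRN, a photoreceptor gene, was at 0.763, 0.408 and 0.736 CPM with TAF1C and 253 and 1.06 CPM with eV. PDE6G, another, was at 0.481, 0.350 and 0.705 CPM with TAF1C and 7.92 and 1.66 CPM with eV. Others of that list, OTX2, CRX, NRL and AIPL1, were instead higher in eV replicate 2, OTX2 being at 0.226, 0.0583 and 0.123 CPM with TAF1C and 300 and 422 CPM with eV. Platelet and endothelial markers (5 of 6 listed were found) summed to 8.03, 5.51 and 7.82 CPM with TAF1C and 63.0 and 6.13 CPM with eV. Fibroblast markers summed to 42.0, 28.1 and 34.7 CPM with TAF1C and 69.3 and 22.4 CPM with eV. In both sums eV replicate 1 was high, but eV replicate 2, unlike for ALOX5, was not above all the libraries labelled TAF1C. White blood cells are where ALOX5 and ALOX5AP are best known. The 14 blood cell markers, all but HBB of white cells, summed to 50.1, 45.8 and 48.5 CPM with TAF1C and 68.5 and 45.8 CPM with eV. None of the 14 was at 0 in all libraries, and 5 were under 1 CPM in each. Haemoglobin HBB, the largest part of the sum, was at 24.3, 20.7 and 22.5 CPM with TAF1C and 40.2 and 31.5 CPM with eV. LAPTM5 was at 6.67, 7.32 and 7.67 CPM with TAF1C and 4.53 and 3.95 CPM with eV. CD14 was also above the eV libraries in each library labelled TAF1C, HBB and TYROBP were below, and the others overlapped. The part of these cell markers in the ALOX5 and ALOX5AP values was not tested.

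LTA4H (ENSG00000111144), the hydrolase that makes leukotriene B4, was at 90.1, 95.0 and 91.4 CPM in the libraries labelled TAF1C and 50.9 and 81.9 CPM in the eV libraries. Those labelled TAF1C lay close together and above both others, with eV replicate 2 close behind. For LTA4H the log2 fold change was 0.47 ± 0.21 (SE), with 0.10 without eV replicate 1 and 0.82 without eV replicate 2.

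Ratios within a library do not depend on scaling. ALOX5AP had 12.6, 25.0 and 12.1 counts for each ALOX5 count in the libraries labelled TAF1C, and 0.0636 and 0.190 in the eV libraries. The ratio was higher in each library labelled TAF1C than in either eV library. LTA4H had 91.1, 192 and 82.8 counts for each ALOX5 count with TAF1C and 4.88 and 36.9 with eV, so that the ratio in eV replicate 2 lay nearer to the libraries labelled TAF1C.

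**Figure D3:**
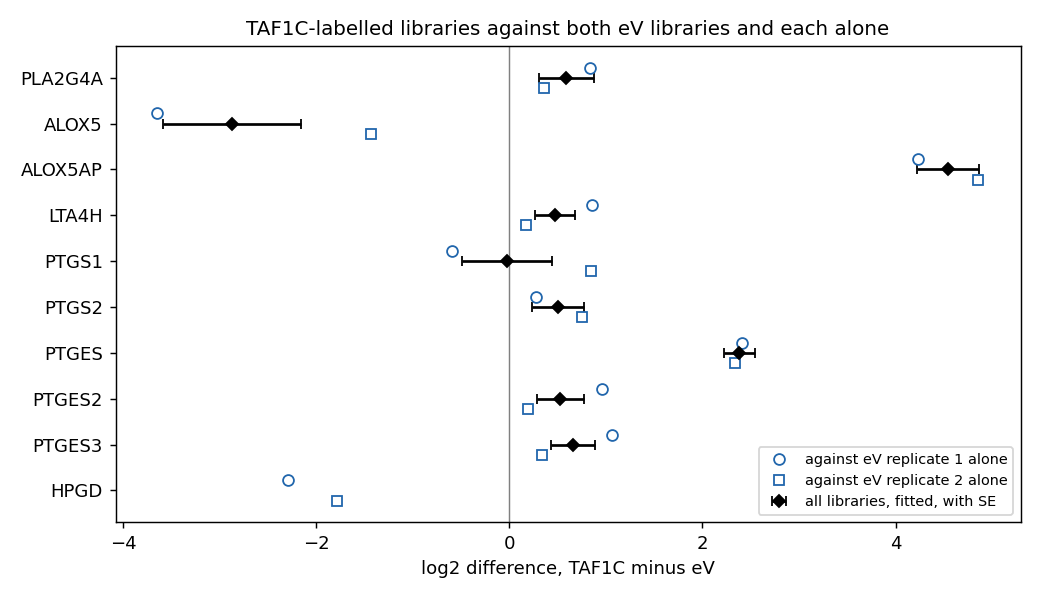
Log2 difference, TAF1C minus eV, for each gene. Black diamonds are fitted values from all 5 libraries with SE bars, open circles set the libraries labelled TAF1C against eV replicate 1 alone, and open squares against eV replicate 2 alone. PTGES gives nearly the same value against each, 2.41 and 2.34, while ALOX5 gives -3.65 and -1.43 and PTGS1 changes sign. HPGD, which did not pass the filter, has no fitted value.

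At the cyclooxygenase step the differences were small. PTGS1 (ENSG00000095303), the constitutive enzyme known as COX-1, was at 4.47, 4.38 and 6.26 CPM in the libraries labelled TAF1C and 7.48 and 2.75 CPM in the eV libraries. The eV libraries lay on either side of those labelled TAF1C. Its log2 fold change of -0.02 ± 0.47 (SE) had no stable sign: it was 0.80 without eV replicate 1 and -0.61 without eV replicate 2. It was also just above 0 with RLE factors, DESeq2, filterByExpr, no filter, and without TAF1C replicate 1 or 2.

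PTGS2 (ENSG00000073756), the inducible COX-2, was at 7.55, 7.93 and 6.23 CPM in the libraries labelled TAF1C and 5.93 and 4.27 CPM in the eV libraries. TAF1C replicate 3 lay barely above eV replicate 1. Its log2 fold change was 0.50 ± 0.27 (SE), with 0.70 without eV replicate 1 and 0.25 without eV replicate 2. PTGS2 had 1.69, 1.81 and 0.995 counts for each PTGS1 count with TAF1C and 0.793 and 1.55 with eV, ranges that overlap.

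Of the PGE synthases, the inducible microsomal enzyme stood apart. PTGES (ENSG00000148344), which works together with PTGS2, had 1055, 923 and 884 counts in the libraries labelled TAF1C and 142 and 156 counts in the eV libraries. Its level was 29.8, 26.9 and 27.1 CPM with TAF1C, a mean of 28.0 ± 1.63 (SD, n = 3), and 5.23 and 5.5 CPM with eV, a mean of 5.37 ± 0.187 (SD, n = 2). The groups were tight and 5.21-fold apart. Its log2 fold change was 2.38 ± 0.16 (SE), and ran from 2.17 to 2.47 over the 12 alternatives. The eV libraries differed little for this gene, and 7.34% of tested genes differed less between them.

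PTGES2 (ENSG00000148334), a Golgi-bound synthase, was at 87.2, 72.0 and 84.2 CPM in the libraries labelled TAF1C and 41.6 and 70.9 CPM in the eV libraries. Only eV replicate 1 was far below. The log2 fold change was 0.53 ± 0.24 (SE), with 0.13 without eV replicate 1 and 0.93 without eV replicate 2.

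PTGES3 (ENSG00000110958), the HSP90 co-chaperone p23 and a cytosolic PGE synthase, was at 337, 351 and 330 CPM in the libraries labelled TAF1C and 162 and 268 CPM in the eV libraries. Again eV replicate 1 was the lowest library. The log2 fold change was 0.66 ± 0.23 (SE), with 0.27 without eV replicate 1 and 1.03 without eV replicate 2. The 5 pseudogenes PTGES3P1 to PTGES3P5 have rows of their own, of which PTGES3P1 held 7.30, 9.45 and 6.38 CPM with TAF1C and 5.97 and 6.03 CPM with eV. The sources used here do not say how reads shared with these pseudogenes were counted, which leaves the PTGES3 level uncertain to that extent.

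PTGES had 0.342, 0.374 and 0.322 counts for each PTGES2 count in the libraries labelled TAF1C and 0.126 and 0.0776 in the eV libraries. Against PTGES3, it had 0.0885, 0.0766 and 0.0821 with TAF1C and 0.0323 and 0.0205 with eV. In both ratios each library labelled TAF1C was above each eV library. PTGES3 had 3.87, 4.88 and 3.92 counts for each PTGES2 count with TAF1C and 3.89 and 3.79 with eV, so that these constitutive synthases kept overlapping ratios.

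HPGD (ENSG00000164120), 15-hydroxyprostaglandin dehydrogenase, had 8, 4 and 12 counts in the libraries labelled TAF1C and 30 and 22 counts in the eV libraries. Its level was 0.226, 0.117 and 0.368 CPM with TAF1C and 1.11 and 0.775 CPM with eV. The groups did not overlap, but the gene reached 1 CPM in too few libraries for the filter. With no filter its log2 fold change was -1.86 ± 0.71 (SE), and it did not pass the test (edgeR adjusted p = 0.119).

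Profiles most like those of the 3 genes with the largest fold changes were sought among 14331 other tested protein-coding genes, by the root mean square difference of centred log2 CPM over the 5 libraries. Nearest to ALOX5AP were the keratin KRT23 (0.04), the neutrophil chemokine CXCL5 (0.18) and the metallothionein MT1A (0.35). KRT23 was at 26.0, 25.9 and 27.2 CPM in the libraries labelled TAF1C and 1.47 and 0.916 CPM in the eV libraries. Nearest to PTGES were PID1 (0.05), FOXL1 (0.05) and the protease inhibitor TIMP1 (0.06), and TIMP1 was at 224, 220 and 216 CPM with TAF1C and 42.5 and 41.2 CPM with eV. Nearest to ALOX5 were the calcium channel RYR2 (0.15), the photoreceptor phosphodiesterase subunit PDE6G (0.23) and the epoxide hydrolase EPHX2 (0.23). RYR2 was at 1.78, 0.817 and 1.47 CPM with TAF1C and 17.2 and 3.91 CPM with eV, so that it shared the high value of eV replicate 1.

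Around these 10 genes, 89 others were listed by function in 7 groups, called pathway genes here, and 67 of them passed the filter. The lists were chosen with earlier results of these data known, so nothing is read from their counts, together or singly. The inducers and regulators (7 of 15 tested genes raised) and the HSP90 partners of PTGES3 (6 of 8) are not steps of the pathway. Of the 67, 23 were raised (34.3%), 2 were lowered (2.99%) and 42 did not pass the edgeR test, beside 15.9% raised and 22.6% lowered among all genes. Their median log2 fold change was 0.49. These counts depended on the library left out: without eV replicate 1 there were 34 raised and 7 lowered, without eV replicate 2 33 and 10, and without TAF1C replicate 1, 2 or 3 11, 10 and 10 raised and 0 lowered.

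**Figure D4:**
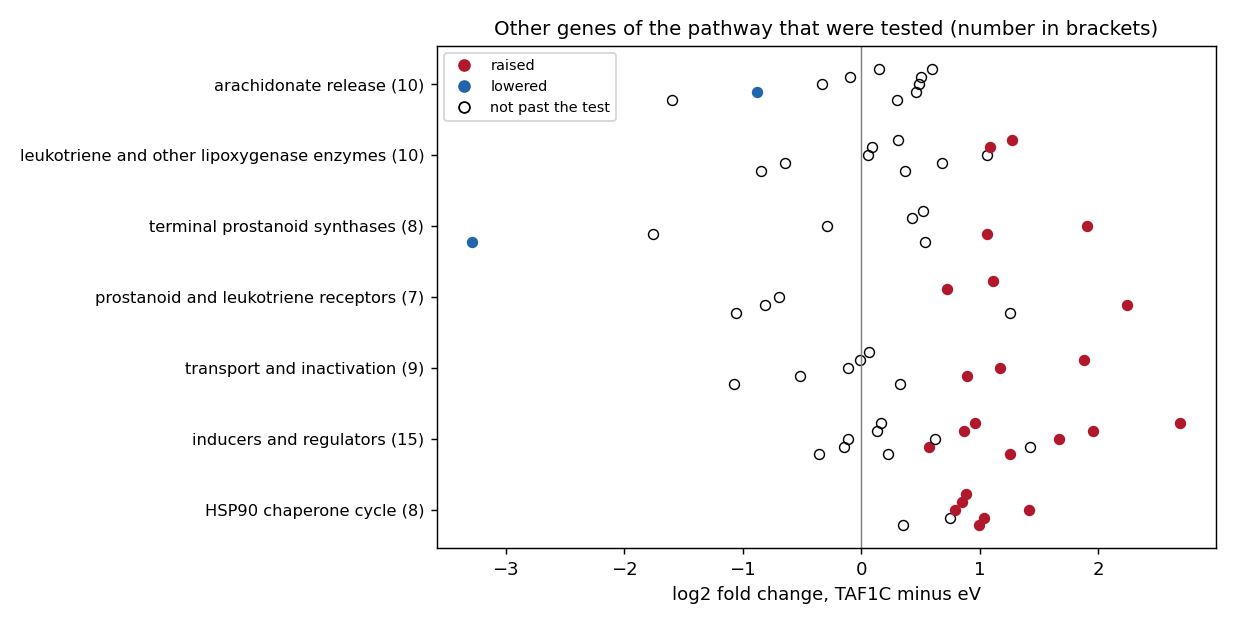
Log2 fold change, TAF1C minus eV, of the 67 tested genes in the 7 groups listed around the pathway. Each point is a gene, filled red where raised, blue where lowered and open where the edgeR adjusted p was 0.05 or more, and points are spread vertically within a group so that they can be seen. Raised genes number 6 of 8 in the HSP90 cycle, 7 of 15 among inducers and regulators, and none among the phospholipases. Among all genes tested, 15.9% were raised. The lists were chosen with earlier results of these data known, so nothing is read from these counts.

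Among the other phospholipases A2, 0 of 10 tested genes were raised and 1 was lowered. PLA2G6, a calcium-independent phospholipase, was at 11.5, 11.3 and 13.2 CPM in the libraries labelled TAF1C and 25.1 and 19.2 CPM in the eV libraries. It fell by 0.88 ± 0.19 (SE) on the log2 scale, with an edgeR adjusted p = 0.0166, and the call was lost without TAF1C replicate 1, 2 or 3 (-0.85, -0.84 and -0.95).

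In the list of other leukotriene and lipoxygenase enzymes, 2 of 10 tested genes were raised. COTL1, an actin-binding protein that also binds 5-lipoxygenase, was at 233, 220 and 237 CPM in the libraries labelled TAF1C and 90.0 and 101 CPM in the eV libraries (log2 fold change 1.27 ± 0.12 (SE), edgeR adjusted p = 0.00128). GGT5, which converts leukotriene C4 to D4, was at 30.1, 26.9 and 28.6 CPM with TAF1C and 13.3 and 13.6 CPM with eV (1.09 ± 0.14, edgeR adjusted p = 0.00337). Both were past the test in all 12 alternatives. LTC4S, the synthase of leukotriene C4, was under 1 CPM in every library and was not tested.

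In the list of terminal prostanoid synthases and related enzymes, 2 of 8 tested genes were raised and 1 was lowered. MGST1, a microsomal glutathione transferase related to PTGES, was at 64.2, 75.0 and 64.9 CPM in the libraries labelled TAF1C and 14.3 and 22 CPM in the eV libraries (log2 fold change 1.91 ± 0.22 (SE), edgeR adjusted p = 0.00235). CBR1, which reduces prostaglandin E2, rose by 1.06 ± 0.19 (SE) with an edgeR adjusted p = 0.00939, lost without TAF1C replicate 1 (1.03) or 2 (1.05). GSTM2, a glutathione transferase, was at 0.283, 0.525 and 1.63 CPM with TAF1C and 13.6 and 2.22 CPM with eV. As with ALOX5, eV replicate 1 was far above the rest, and the GSTM2 call (-3.28 ± 0.99, edgeR adjusted p = 0.0455) was lost without TAF1C replicate 1, 2 or 3 (-2.87, -3.05 and -4.28).

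Among receptors for these lipids, 3 of 7 tested genes were raised. PTGER2, a receptor for prostaglandin E2 that signals through cyclic AMP, was at 7.32, 6.85 and 5.77 CPM in the libraries labelled TAF1C and 2.06 and 0.740 CPM in the eV libraries. It rose by 2.24 ± 0.49 (SE) on the log2 scale (edgeR adjusted p = 0.0177), a call lost without TAF1C replicate 1, 2 or 3 (2.17, 2.22 and 2.34). LTB4R, the high-affinity receptor for leukotriene B4, was at 21.0, 21.1 and 21.2 CPM with TAF1C and 10.8 and 14.7 CPM with eV (0.73 ± 0.19, edgeR adjusted p = 0.0291). LTB4R2, its low-affinity relative, was at 4.02, 4.11 and 3.40 CPM with TAF1C and 1.51 and 2.04 CPM with eV (1.11 ± 0.31, edgeR adjusted p = 0.0364). Both receptor calls were lost without any TAF1C replicate, with LTB4R at 0.73 in each of these fits and LTB4R2 at 1.08, 1.06 and 1.20. Neither cysteinyl leukotriene receptor (CYSLTR1, CYSLTR2) reached 1 CPM in any library.

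In transport and inactivation, 3 of 9 tested genes were raised. ABCC4, which exports prostaglandins from the cell, was at 799, 851 and 775 CPM in the libraries labelled TAF1C and 192 and 246 CPM in the eV libraries (log2 fold change 1.89 ± 0.18 (SE), edgeR adjusted p = 0.00124). SLCO2A1, which takes prostaglandins up, was at 16.6, 14.7 and 16.8 CPM with TAF1C and 7.04 and 7.16 CPM with eV (1.17 ± 0.18, edgeR adjusted p = 0.00607). That call was lost without TAF1C replicate 3 (1.14). PTGR1, a reductase that inactivates leukotriene B4 and prostaglandin metabolites, rose by 0.89 ± 0.14 (SE) with an edgeR adjusted p = 0.00592.

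Of 15 tested inducers and regulators of PTGS2, PTGES and PLA2G4A, 7 were raised: CEBPB, IL1A, ZFP36, EGR1, MAPKAPK2, NFKB1 and RELA. CEBPB, a transcription factor of inflammation, was at 279, 232 and 269 CPM in the libraries labelled TAF1C and 37.0 and 43.5 CPM in the eV libraries (log2 fold change 2.69 ± 0.16 (SE), edgeR adjusted p = 0.000358). The cytokine IL1A was at 14.2, 15.2 and 12.0 CPM with TAF1C and 3.94 and 3.17 CPM with eV (1.95 ± 0.24, edgeR adjusted p = 0.00291). EGR1, known as an activator of the PTGES promoter, was at 75.3, 77.5 and 90.2 CPM with TAF1C and 24.6 and 43.1 CPM with eV. It rose by 1.26 ± 0.26 (SE) with an edgeR adjusted p = 0.0142, lost without TAF1C replicate 2 (1.29) or 3 (1.18). ZFP36, which speeds the decay of mRNAs such as that of PTGS2, rose by 1.67 ± 0.23 (SE) with an edgeR adjusted p = 0.00422. Among the cytokines that did not pass, IL1B was at 5.03, 4.81 and 5.24 CPM with TAF1C and 4.57 and 1.97 CPM with eV. IL6 was at 2.57, 2.86 and 3.50 CPM with TAF1C and 1.55 and 0.670 CPM with eV, and TNF is listed at 0 in every library.

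In the HSP90 cycle, in which PTGES3 acts as p23, 6 of 8 tested genes were raised. FKBP5, an HSP90 co-chaperone of steroid receptors, was at 605, 641 and 603 CPM in the libraries labelled TAF1C and 225 and 237 CPM in the eV libraries (log2 fold change 1.41 ± 0.13 (SE), edgeR adjusted p = 0.00126). STIP1, which links HSP70 to HSP90, rose by 1.04 ± 0.20 (SE) with an edgeR adjusted p = 0.0122. The chaperone HSPA8 (0.996 ± 0.29, edgeR adjusted p = 0.0420) and FKBP4 (0.89 ± 0.22, edgeR adjusted p = 0.0252) rose too. In eV replicate 1 they were at 1010 and 119 CPM. Every gene of this list had eV replicate 1 as its lowest library, as PTGES3 did. Some genes outside the list, such as ABCC1 and ELAVL1, did so too, while others, such as ALOX5, had it highest. The calls of STIP1, HSPA8 and FKBP4 were lost without any TAF1C replicate, with values of 1.04, 1.01 and 0.88 without replicate 1, 1.04, 0.96 and 0.88 without replicate 2, and 1.04, 1.03 and 0.91 without replicate 3. The HSP90 genes themselves did not pass. HSP90AA1 was at 2390, 2720 and 2410 CPM with TAF1C and 1210 and 1780 CPM with eV, and HSP90AB1 at 1540, 1620 and 1590 CPM with TAF1C and 837 and 1650 CPM with eV.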

How the data were processed

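Long RNA was measured in 3 libraries labelled TAF1C and 2 eV libraries. The deposited tables hold raw counts from the authors, whole numbers for 57773 Ensembl rows with no coordinates. The submitters' processing notes name hg19 as the build and list DESeq2, HISAT2, Bowtie2 (2.2.4), Trimmomatic (0.36) and Cufflinks (2.2.1). Annotation, strand setting and the counting of shared reads are not given in the sources used here, so reads of overlapping, antisense or near-identical genes cannot be told apart. The 236 symbols on more than 1 row were summed, giving 55771 genes.

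The groups were compared by edgeR's quasi-likelihood method (version 4.0.16, R 4.3.3), with TMM factors on full library totals. A gene entered if 2 or more libraries held 1 CPM or more. Tests were two-sided, with Benjamini-Hochberg adjustment over all 18402 genes and a threshold of 0.05. The procedure was first run on simulated counts that had the same dispersion for every gene and library. The real libraries differ in spread, so that run cannot show how the test behaves on them. Differences against single eV libraries used log2 CPM with a prior count of 0.5. The 12 alternatives were 3 scalings, 2 filters, DESeq2 1.42.0, each library left out and a replicate block. Promoters were searched and plots drawn in Python 3.11.15 (pandas 2.3.3, matplotlib 3.10.9), in the 250 bases before each RefSeq start.

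The members and all lists were chosen with earlier results of these data known. Named genes were the members, TAF1C, at most 4 changed genes per list and direction with the largest fold changes and at least 1 CPM in the higher group, and the 3 nearest profiles of 3 members. LTC4S, CYSLTR1, CYSLTR2, IL1B, IL6, TNF, NFKB1, RELA, MAPKAPK2, HSP90AA1, HSP90AB1, PTGES3P1 and the genes of the closing section were named after their values were seen. Counting error limits the genes of low count.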

Additional observations from a re-analysis of the deposited data

How the results depend on the processing

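Among the 9 tested members, PTGS1 alone changed sign in any of the 12 alternatives, and calls of members lend no support, since the same comparison chose them. PTGS1 was at 0.0643 with RLE factors, 0.14 with no filter, 0.0740 with filterByExpr, 0.0643 with DESeq2, -0.61 without eV replicate 2, 0.80 without eV replicate 1, 0.06 without TAF1C replicate 1 and 0.07 without TAF1C replicate 2, against -0.02 in the reported fit. With 1 library left out, 2 to 6 members were raised and 0 to 2 lowered, 10 to 34 of the other pathway genes were raised and 0 to 10 lowered, and 1058 to 5966 of all genes were raised and 1960 to 5665 lowered. The highest numbers raised were 6 members without eV replicate 2 and 34 pathway genes without eV replicate 1, fits whose spread comes from TAF1C libraries only and that assume that the lone eV library varies like them. Without any TAF1C replicate, 2 members were raised and 0 lowered, and raised genes overall numbered 1058, 1182 and 1076. Lowered pathway genes, 2 in the reported fit, were 5 with library totals and 1 with no filter, with filterByExpr and with the replicate block. Raised genes over the whole table were 1817 with no filter. The titles give replicate numbers but name no batch, and deviations from the group means correlated at 0.04 for number 1 and 0.12 for number 2. Since the deviations of only 2 eV libraries mirror each other, these values cannot tell whether a number marks a shared batch. With the replicate block, 1425 genes were raised and 2662 lowered, among them 2 raised members, 1 lowered member and 16 raised pathway genes. Among the pathway genes named above, and other than with a library left out, calls were lost for LTB4R2 (0.92 with library totals, 1.19 with no filter, 1.152 with filterByExpr), LTB4R (0.80 with no filter, 0.77 with filterByExpr), HSPA8 (1.05 with RLE factors, 1.05 with no filter, 1.02 with filterByExpr), FKBP4 (0.95 with no filter, 0.92 with filterByExpr), PLA2G6 (-0.77 with no filter) and GSTM2 (-3.16 with filterByExpr). The replicate block ended, among the named pathway genes, the calls of PLA2G6, LTB4R2, LTB4R, SLCO2A1, STIP1 and HSPA8. Where no value shows why a count moved, the cause was not tested. Precision is limited by the gap between the 2 eV libraries, and for HPGD and the eV level of ALOX5AP also by counts of 30 or fewer.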

Other observations

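PTGES, ALOX5AP and MGST1 belong to the same family of small membrane proteins, the MAPEG family of glutathione-dependent enzymes and their relatives, and all 3 were higher in the libraries labelled TAF1C. Of the other members, MGST2 was at 13.5, 13.2 and 11.7 CPM in the libraries labelled TAF1C and 6.60 and 13.1 CPM in the eV libraries, and MGST3 was at 57.1, 56 and 53.4 CPM with TAF1C and 40.8 and 48.4 CPM with eV. Neither passed the edgeR test, with log2 fold changes of 0.37 ± 0.32 (SE) and 0.32 ± 0.12 (SE). LTC4S, the remaining relative, was at 0.566, 0.175 and 0.491 CPM with TAF1C and 0.369 and 0.106 CPM with eV. The family was looked at after its values were seen, and 2 of its members had been chosen for their rise.

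The genes next to the members in RefSeq (GRCh38) were looked at in the same way. Of 12 tested protein-coding neighbours that are not members, 4 were raised, 2 were lowered and 6 did not pass, beside 15.9% raised and 22.6% lowered among all genes. The lowered ones both flank HPGD, itself lower in the libraries labelled TAF1C at counts of 30 or fewer, but not past the test. CEP44 was at 12.6, 13.7 and 10.1 CPM with TAF1C and 21.2 and 30 CPM with eV, and GLRA3 at 0, 0.292 and 0.123 CPM with TAF1C and 1.84 and 1.09 CPM with eV (log2 fold changes -1.08 ± 0.23 and -3.38 ± 0.96 (SE)). Beside PTGES, TOR1B was at 66.7, 63.6 and 65.7 CPM in the libraries labelled TAF1C and 31.8 and 35.6 CPM in the eV libraries, with a log2 fold change of 0.96 ± 0.11 (SE), while PRRX2 on the other side was at 0.933, 0.846 and 1.23 CPM with TAF1C and 1.25 and 0.881 CPM with eV. Beside ALOX5AP, USPL1 was at 26.3, 32.1 and 28.1 CPM with TAF1C and 29.0 and 27.6 CPM with eV. Beside ALOX5, OR13A1 was at 0.226, 0 and 0.184 CPM with TAF1C and 1.62 and 0.529 CPM with eV. Like ALOX5 it was highest in eV replicate 1, but it did not pass the filter. PDC, a gene of photoreceptors next to PTGS2, had 1, 2 and 6 counts in the libraries labelled TAF1C and 702 and 14 counts in the eV libraries, and PTGS2 did not share this pattern, at 5.93 CPM in eV replicate 1 and 4.27 CPM in eV replicate 2. Beside LTA4H, ELK3 rose by 1.61 ± 0.13 (SE) on the log2 scale (edgeR adjusted p = 0.000812), while LTA4H itself was at 0.47. The other raised neighbours were MRRF beside PTGS1 (0.91 ± 0.20) and NACA beside PTGES3 (0.79 ± 0.22).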
